A study of Mus musculus with 60 samples.

Results

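The voltage-gated sodium channel genes described here are the alpha subunit genes Scn1a, Scn2a, Scn3a, Scn4a, Scn7a, Scn8a, Scn9a, Scn10a and Scn11a. They were chosen by name, 9 of 21887 protein-coding genes in the RefSeq table, and each was taken with its gene body and 10 kb on either side. Chromatin was profiled in lumbar (L4-L6) dorsal root ganglia of C57BL/6 mice aged 6 to 8 weeks, 24 hours after 1 of 4 surgeries. The peripheral pair was sciatic nerve axotomy (SNA) against sham surgery on that nerve (Sham), and the central pair was dorsal column axotomy of the spinal cord (DCA) against laminectomy alone (Lam). For every surgery there were ChIP-seq samples of H3K9ac, H3K27ac and H3K27me3, 2 per group with inputs and 10 mice pooled in each, and 3 ATAC-seq samples of 1 mouse each. The replicates of a group were pooled into 1 peak list by the submitters, which gives 16 lists. No value below therefore has a replicate error or a test, and the intervals given cover counting error only. The tissue is a whole ganglion of neurons, glia and other cells, so a site open in fewer cells and a site less open in each cell cannot be told apart.

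Voltage-gated sodium channels open on depolarization and carry the rising phase of the action potential. Each alpha subunit forms a complete pore, and beta subunits and intracellular partners adjust its gating and its place in the membrane. In sensory ganglia, Scn9a (Nav1.7), Scn10a (Nav1.8) and Scn11a (Nav1.9) are known for their roles in pain-sensing neurons, the last 2 as channels that resist tetrodotoxin. H3K9ac and H3K27ac are marks of active promoters and enhancers, H3K27me3 is a mark of Polycomb repression, and ATAC-seq reports DNA that a transposase can reach.

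The 9 genes lie in 2 clusters and at 2 single loci. On chromosome 2 the order is Scn3a (65457118-65567591, GRCm38), Scn2a (65620764-65767447), Scn1a (66270781-66440837), Scn9a (66480080-66635114) and Scn7a (66673426-66784910), and the windows cover 794 kb. On chromosome 9, Scn10a (119608456-119719322) and Scn11a (119753763-119825456) lie 34.4 kb apart and their windows cover 223 kb. Scn4a (chromosome 11, 106317545-106365559) and Scn8a (chromosome 15, 100869863-101045938) stand alone. The Scn4a window also holds Cd79b and Prr29 and the Scn8a window holds Fignl2, so peaks there may belong to those genes. The RefSeq tables used give no exons, so peaks are placed by distance and not by exon or intron.

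A promoter was listed for 8 of the 9 genes, Scn3a being the one with none. The 250 bases before the start are shown for 6 of them, because the results on open or acetylated starts turn on them. They come from RefSeq (GRCm38.p6), run 5′ to 3′ on the gene's strand, and carry every CpG in capitals. Their positions are chr2:66634963-66635212 for Scn9a (minus strand), chr9:119719033-119719282 for Scn10a (minus), chr9:119825457-119825706 for Scn11a (minus), chr2:65668436-65668685 for the inner start of Scn2a (plus), chr2:66784911-66785160 for Scn7a (minus) and chr15:100870395-100870644 for the outer start of Scn8a (plus).

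Scn9a: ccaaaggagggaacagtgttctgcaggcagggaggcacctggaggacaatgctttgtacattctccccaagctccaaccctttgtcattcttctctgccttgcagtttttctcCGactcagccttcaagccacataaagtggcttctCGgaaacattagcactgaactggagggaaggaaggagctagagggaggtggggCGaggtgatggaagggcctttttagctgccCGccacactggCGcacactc

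Scn10a: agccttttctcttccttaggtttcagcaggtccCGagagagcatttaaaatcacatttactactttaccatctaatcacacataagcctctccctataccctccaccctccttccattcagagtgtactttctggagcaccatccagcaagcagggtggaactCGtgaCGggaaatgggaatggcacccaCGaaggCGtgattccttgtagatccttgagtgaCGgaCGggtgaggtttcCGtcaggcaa

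Scn11a: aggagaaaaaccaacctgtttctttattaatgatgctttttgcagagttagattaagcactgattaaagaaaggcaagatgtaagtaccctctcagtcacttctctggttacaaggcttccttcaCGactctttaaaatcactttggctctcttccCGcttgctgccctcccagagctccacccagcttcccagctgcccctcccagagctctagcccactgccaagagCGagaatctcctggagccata

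Scn2a inner start: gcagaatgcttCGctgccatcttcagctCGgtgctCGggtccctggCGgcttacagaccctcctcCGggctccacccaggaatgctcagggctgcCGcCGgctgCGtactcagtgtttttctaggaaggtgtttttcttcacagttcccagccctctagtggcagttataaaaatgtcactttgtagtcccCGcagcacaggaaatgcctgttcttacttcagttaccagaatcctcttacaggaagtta

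Scn7a: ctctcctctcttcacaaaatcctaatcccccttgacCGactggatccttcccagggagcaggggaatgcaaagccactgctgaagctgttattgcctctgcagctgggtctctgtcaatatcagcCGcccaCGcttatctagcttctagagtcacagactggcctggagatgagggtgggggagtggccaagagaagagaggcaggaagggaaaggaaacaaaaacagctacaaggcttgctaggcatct

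Scn8a outer start: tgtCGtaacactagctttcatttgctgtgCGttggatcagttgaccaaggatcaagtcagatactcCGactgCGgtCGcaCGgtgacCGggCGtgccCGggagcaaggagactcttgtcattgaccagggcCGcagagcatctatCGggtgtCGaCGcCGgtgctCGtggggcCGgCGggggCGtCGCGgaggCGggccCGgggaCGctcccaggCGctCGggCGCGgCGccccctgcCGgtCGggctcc

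The Scn8a promoter is the CpG-rich one among them. It holds 30 CpGs at 68.0% GC, and 5.94% of the 32851 listed promoters held as many. The others shown held 3 in Scn7a and Scn11a, 5 in Scn9a, 8 in Scn10a and 9 in Scn2a, against a median of 6 over all promoters (quartiles 2 and 16). A search of the same 250 bases on both strands of all 10 listed starts found no AP-1 site (TGANTCA, in 6.75% of all promoters) and no CRE (TGACGTCA, in 1.55%). It found 1 CCAAT (33.8% of all promoters) in Scn1a, 1 RUNX core (TGTGGT, 14.0%) at the outer start of Scn2a, 1 TATAAA (12.4%) at its inner start and 1 GGGCGG (32.7%) in Scn7a. These are matches of letters only.

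The strongest open site of the family was the Scn9a promoter. Its ATAC peak (chr2:66634501-66635422 in SNA) covered the start in all 4 lists. The deposited fold enrichment, a linear ratio of the peak over its background, was 4.25 (Sham), 4.65 (SNA), 3.24 (Lam) and 4.08 (DCA). In reads, recovered from the deposited fold and p, this was 72 over 16.2, 84 over 17.3, 58 over 17.2 and 78 over 18.4. The folds are each list's own and were not brought to a common scale, so an order between lists only describes the deposited values. The Lam list held the lowest value, and no other gene start of the family passed a fold of 3.48 in any list.

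Most other starts were also open. In each list, 7 of the 9 genes had an ATAC peak no more than 1 kb from a start, where 68.2% (Sham), 70.3% (SNA), 68.5% (Lam) and 69.8% (DCA) of all genes with a listed start had one. The members' share is near this background. Scn2a, Scn4a, Scn7a, Scn8a, Scn9a and Scn10a had the peak in all 4 lists. The start peaks of Scn7a in Lam (−log10 q of 0.95) and Scn10a in SNA (1.29) do not pass a q of 0.05. At that limit the pairs of gene and list with an ATAC start peak went from 28 to 25. The outer start of Scn8a, which encodes the axonal channel Nav1.6, had a fold of 2.62 (Sham), 3.48 (SNA), 2.90 (Lam) and 3.27 (DCA), with both injury lists above both control lists. At the inner start of Scn2a, which encodes the neuronal channel Nav1.2, the folds were 3.16, 2.46, 2.85 and 2.68 in the same order, with Sham highest. At Scn7a, which encodes the sodium-sensing channel Nax, they were 3.02, 2.46, 1.70 and 1.86, with the 2 lists of the peripheral pair above the 2 of the central pair. Scn10a had weaker peaks, with 2.17 (Sham), 1.67 (SNA), 2.14 (Lam) and 1.84 (DCA), both controls above both injuries. At Scn4a, the gene of the skeletal muscle channel, the folds were between 1.82 and 2.44.

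At Scn11a and Scn1a the start window held a peak in 2 of the 4 lists. The Scn11a start lay inside an ATAC peak in Sham (fold 1.84) and in Lam (2.22) and had no peak within 1 kb in SNA or DCA. The nearest peaks in those lists were 1795 and 1712 bases away. Scn1a, the gene of the neuronal channel Nav1.1, had a peak 570 bases from its start in SNA (fold 1.92) and 455 bases away in DCA (1.60), and none within 1 kb in Sham or Lam. The Scn1a peak in DCA had a −log10 q of 0.76 and does not pass a q of 0.05, which leaves SNA alone at that limit. The folds of these 4 peaks were between 1.60 and 2.22, and a site absent from a list is one that was not called at that list's depth. For Scn3a, with no listed start, both gene ends were used. Peaks lay 1165, 1152 and 1192 bases from its upper end in Sham, Lam and DCA, just outside the 1 kb limit.

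**Figure D1:**
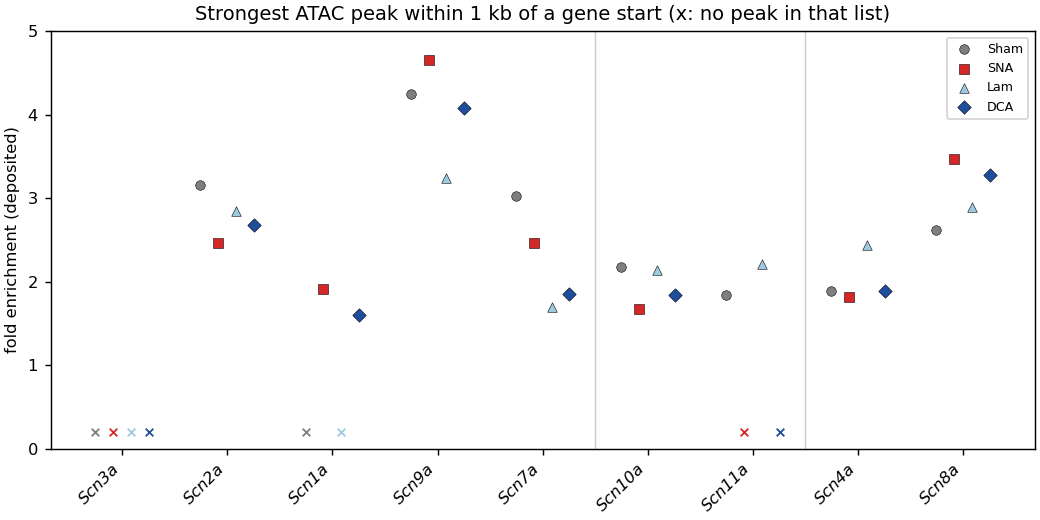
Deposited fold enrichment of the strongest ATAC peak within 1 kb of a gene start, for the 9 genes (x axis, in cluster order) and the 4 pooled lists (colour and symbol); a cross marks a list with no peak. Scn9a sits highest, between 3.24 and 4.65, Scn11a has points in the 2 control lists only, and Scn1a in the 2 injury lists only.

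Acetylation was sparse at the starts of these genes. Over the 9 genes and 4 lists, H3K9ac peaks reached a start in 6 of 36 combinations and H3K27ac peaks in 4. With a q of at most 0.05 the numbers were 5 and 4, the H3K9ac peak of Scn2a in Sham being the one lost. H3K9ac lay at Scn2a in Sham, at Scn2a and Scn7a in SNA, at Scn2a in Lam, and at Scn7a and Scn8a in DCA. That is 1, 2, 1 and 2 of 9, where 50.4% (Sham), 51.9% (SNA), 51.6% (Lam) and 59.9% (DCA) of all genes with a listed start had such a peak. H3K27ac lay at Scn2a and Scn7a in SNA and at Scn9a and Scn10a in DCA, and at no member in Sham or Lam, against 40.5% of genes (Sham), 52.1% (SNA), 51.5% (Lam) and 43.6% (DCA). Open starts without called acetylation were thus the usual state of the family in these lists. Sensory neuron marker genes had few acetylated starts too. For marker and partner genes with no listed start, either gene end was taken as the start. Of Prph, Isl1, Pou4f1, Avil and Rbfox3, 3 to 4 of 5 had an ATAC peak at a start and 0 to 1 of 5 an H3K9ac peak, Prph being the one in Lam and DCA. For H3K27ac it was 0 to 2 of 5. Of 6 genes of satellite glia and Schwann cells, 5 had an H3K9ac start peak in each list, 3 to 6 an H3K27ac start peak and 4 to 5 an ATAC start peak. Of 5 muscle genes, 0 to 1 had an H3K9ac start peak and 3 to 5 an ATAC start peak, of 5 macrophage genes 1 to 2 and 3, and of 4 spinal cord and brain genes 0 to 1 and 1 to 2. An H3K27ac start peak lay at 0 to 1 of the muscle genes, 0 to 1 of the macrophage genes and 0 to 1 of the spinal cord and brain genes. The part that cell mixture has in these counts was not tested.

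The inner start of Scn2a carried the clearest promoter acetylation. In SNA an H3K27ac peak (chr2:65668696-65669184) had a fold of 5.74, and an H3K9ac peak (chr2:65668751-65669127) one of 4.99. H3K9ac was also called there in Sham at 3.08, 113 bases upstream of the start, and in Lam at 3.27, and not in DCA. This start is the one with TATAAA in the sequence above, at −84 from the start, as a match of letters only. At Scn7a, SNA alone held H3K27ac, as 5 peaks, of which 2 lay within 1 kb of the start and the strongest (chr2:66783785-66784346) had a fold of 4.62. The strongest H3K27ac peak in the Scn4a window lay in its upstream flank in DCA (chr11:106373302-106373571, fold 6.75). The upper end of the Scn4a body lies away from its listed start (106349390) and also carried acetylation. H3K27ac folds within 1 kb of that end were 4.09 in Sham, 4.16 in SNA and 3.17 in DCA, with no peak in Lam, and the H3K9ac fold was 4.47 in DCA. In Scn3a, H3K27ac in SNA (chr2:65471439-65471721, fold 5.07) and H3K9ac in DCA (chr2:65471441-65471809, 2.65) lay at the same place inside the gene. The one H3K9ac peak of Scn1a was in DCA (chr2:66409763-66410104, 2.98).

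**Figure D2:**
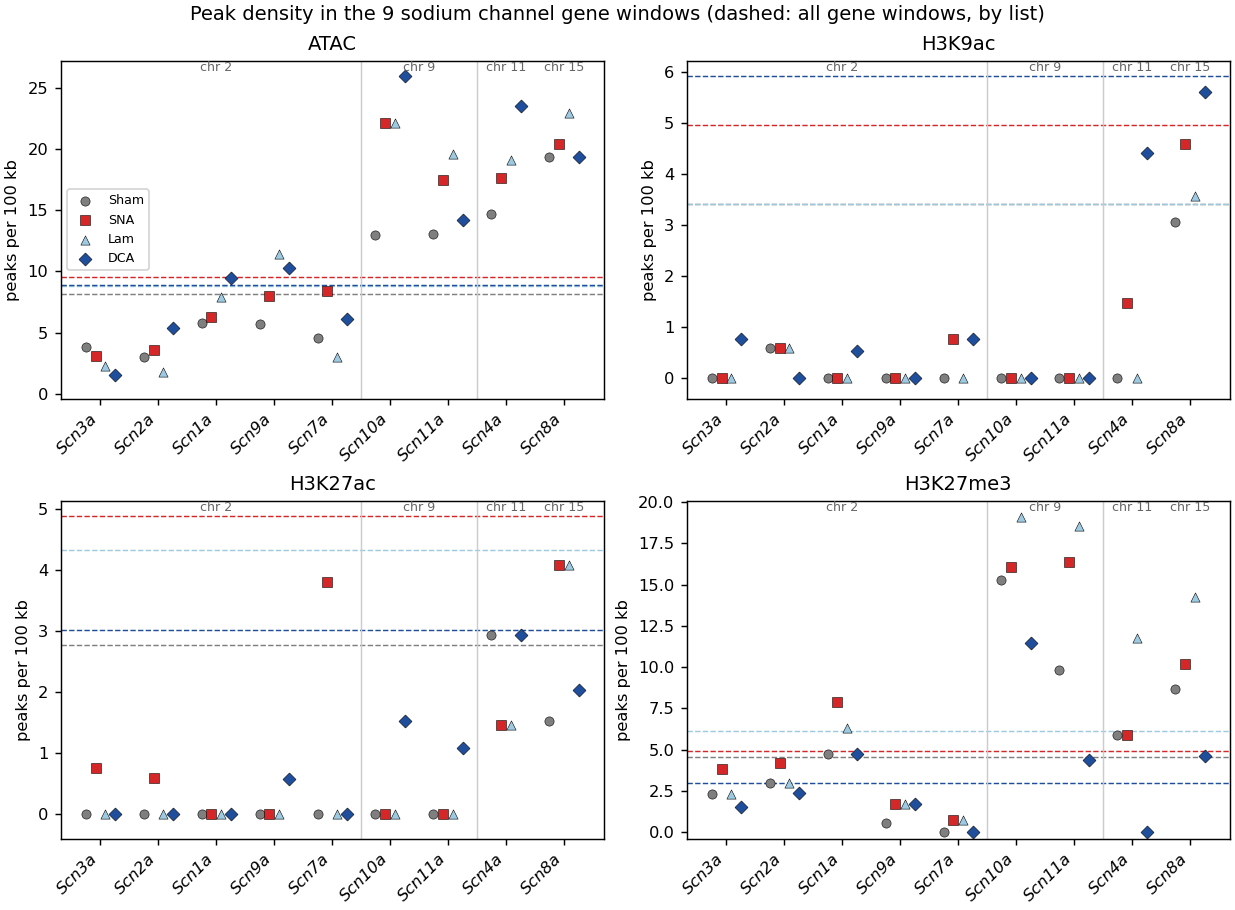
Peaks per 100 kb in the window of each gene (x axis, grouped by chromosome) for the 4 assays (panels) and the 4 pooled lists (colour and symbol); dashed lines give the density over all gene windows in each list. ATAC and H3K27me3 points of Scn10a and Scn11a lie above those of every chromosome 2 gene in the same list, except H3K27me3 in DCA where Scn1a (4.74) is above Scn11a (4.36), and H3K9ac reaches its dashed line only in Scn8a in Lam (3.57).

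Scn8a held most of the acetylation of the family, and most of it lay far from the start. Its window had 6 H3K9ac peaks (Sham), 9 (SNA), 7 (Lam) and 11 (DCA), out of 7, 12, 8 and 17 in all 9 windows. For H3K27ac the numbers were 3, 8, 8 and 4, out of 5, 16, 9 and 10. The DCA list was the highest for H3K9ac, whereas SNA and Lam were the highest for H3K27ac. The densities of H3K9ac in Scn8a, between 3.06 and 5.61 peaks per 100 kb, were close to the 3.41 to 5.93 of all gene windows. Genes with a length in the range of the 9 members (48.0 to 176 kb) had lower medians. These were 2.09 (Sham), 2.78 (SNA), 2.46 (Lam) and 3.88 (DCA), with upper quartiles of 4.94, 7.64, 5.43 and 9.82. Scn8a lay between the median and the upper quartile in every list.

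A single stretch about 160 kb from the 5′ end stood out in Scn8a. H3K9ac peaks overlapped chr15:101029261-101030570 in all 4 lists, with highest folds of 4.50 (Sham), 6.17 (SNA), 3.12 (Lam) and 4.21 (DCA). H3K27ac peaks overlapped chr15:101027867-101032080 in all 4 lists. The highest folds were 3.80 (Sham), 5.23 (SNA), 8.97 (Lam) and 3.11 (DCA). The Lam value is the highest of any acetylation peak in the 9 windows. The region is the 1 of 25 H3K27ac regions in the family present in all 4 lists (4%, 0.71 to 19.5). Over all gene windows 14.7% were. For H3K9ac, 4 of 23 regions were present in every list (17.4%, 6.98 to 37.1), near the 19.8% over all gene windows. All 4 of these H3K9ac regions were in Scn8a. The other 3 were chr15:101027911-101029155 beside the stretch, chr15:101006522-101007606 and chr15:100983381-100984225. The last 2 coincided with ATAC sites present in all 4 lists. At 137 kb (chr15:101006587-101007486) the highest ATAC folds were 3.23 (Sham), 3.25 (SNA), 2.07 (Lam) and 2.51 (DCA), and at 114 kb (chr15:100983335-100984466) they were 3.55, 3.12, 2.53 and 2.85. Within the H3K27ac region at 160 kb, ATAC had 1 weak peak in Sham (fold 1.67), 1 in SNA (1.65) and 1 in DCA (1.79), and none in Lam, where H3K27ac was strongest.

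**Figure D3:**
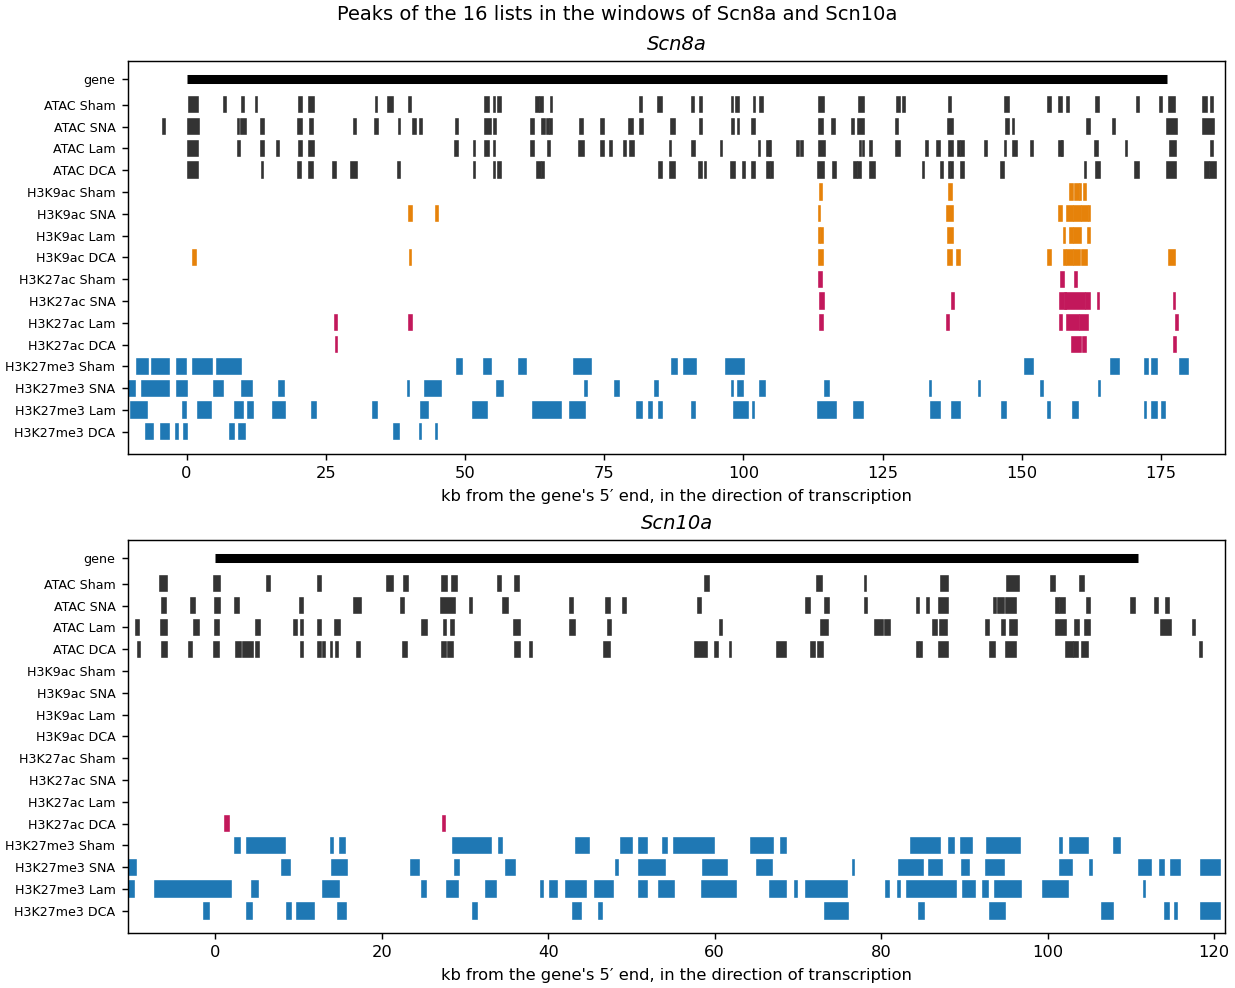
Peaks of the 16 pooled lists (rows) in the windows of Scn8a and Scn10a by distance in kb from the 5′ end of the gene (x axis, negative upstream); the black bar is the gene and each coloured block a peak at its true width. Acetylation in Scn8a gathers about 160 kb from the 5′ end in all 8 acetylation lists, and Scn10a is covered by ATAC and weak H3K27me3 peaks with 2 H3K27ac peaks in DCA.

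The 3 genes best known for pain-sensing neurons were the ones with no H3K9ac peak in any full list, namely Scn9a, Scn10a and Scn11a. Scn1a and Scn3a came close, with 1 H3K9ac peak each, in DCA. With lists cut to equal size, Scn1a, Scn3a and Scn7a had none in any list either, so the trait was not particular to the 3 genes. Over all genes 28.5% had none, and among the 3955 genes with a length in the range of the 9 members (48.0 to 176 kb), 12.7% had none. For the chromosome 9 windows a count of 0 in a list has an exact Poisson upper limit of 1.66 peaks per 100 kb. This is below the 3.41 to 5.93 of all gene windows and the medians of 2.09 to 3.88 of genes in that length range. It is above the lower quartiles of those genes, 0.68 to 1.28 over the lists, so densities under the limit are not rare among them. H3K27ac reached these 3 genes in DCA alone. Scn10a had 2 peaks, 1 of them 812 bases from its start (chr9:119717643-119718220, fold 3.86) and 1 at 27.02 kb from it (chr9:119691772-119692015, 4.50), Scn9a had 1 over its start (chr2:66634445-66634996, 3.11) and Scn11a had 1 in its downstream flank (3.39). All 4 had 11 to 13 reads at the summit over a background of 2.11 to 3.17. Scn1a was the member with no H3K27ac peak in any list.

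The chromosome 9 cluster was more densely covered with ATAC peaks than the chromosome 2 cluster in every list. In Sham, 29 peaks on chromosome 9 and 37 on chromosome 2 gave 13.0 and 4.66 per 100 kb, a ratio of 2.80 (95% exact conditional interval 1.66 to 4.67). In SNA, 45 and 47 peaks gave 20.2 and 5.92, a ratio of 3.41 (2.22 to 5.25). In Lam, 47 and 45 peaks gave 21.1 and 5.67, a ratio of 3.72 (2.42 to 5.74). In DCA, 47 and 55 peaks gave 21.1 and 6.93, a ratio of 3.05 (2.02 to 4.58). All gene windows together had between 8.14 and 9.51, so chromosome 9 lay above that level and chromosome 2 below it in all 4 lists. The covered share of the windows was 6.62% to 11.3% on chromosome 9 and 2.03% to 3.03% on chromosome 2.

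The ratio was smaller among strong peaks. With a q of at most 0.05 the log2 ratio of densities over the 4 lists was 1.68. With peaks of a −log10 q of at least 5, 8 remained on chromosome 9 and 19 on chromosome 2 over the 4 lists. The log2 ratio was then 0.59 (−0.81 to 1.84), against 1.70 (1.39 to 2.01) with all peaks. Both intervals treat a site found in several lists as separate counts and are too narrow. The median fold was 1.82 to 1.91 on chromosome 9 and 1.96 to 2.08 on chromosome 2.

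The level under the peaks differed between the clusters as well. The background under the ATAC peaks of chromosome 2 was at the level of the whole list, with a median of 16.2 reads (Sham), 17.3 (SNA), 17.2 (Lam) and 18.4 (DCA). On chromosome 9 the median was 18.7, 21.2, 21.7 and 23.5 reads, and every peak stood on a background above the whole-list level. The highest values, 30.4 (Sham), 32.8 (SNA), 33.1 (Lam) and 37.5 (DCA), were all in Scn10a. Scn4a and Scn8a resembled chromosome 9 in this respect, with medians of 19.4 to 24.1 and 17.5 to 21.1. The pile-up at the peaks of the 2 clusters was closer, with medians of 34 to 38 reads on chromosome 2 and 37 to 45 on chromosome 9.

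**Figure D4:**
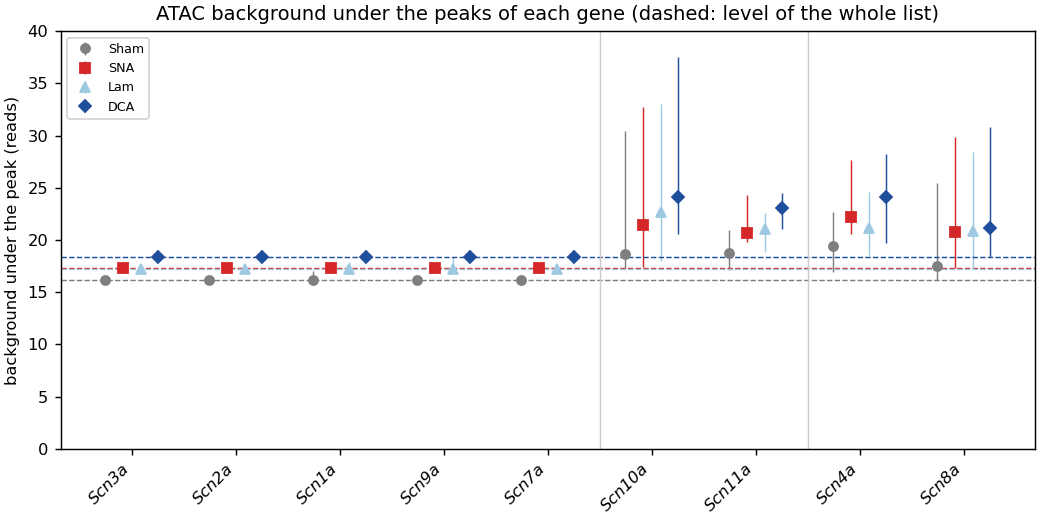
Background under the ATAC peaks of each gene in reads, as recovered from the deposited fold and p; symbols are the median over the peaks of a gene in a list, bars run from the lowest to the highest peak, and dashed lines give the whole-list level. The 5 chromosome 2 genes sit on the dashed lines, and Scn10a and Scn11a have medians between 18.7 and 24.1 reads.

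Ordered by the mean ATAC density of the 4 lists, Scn10a had 20.8 peaks per 100 kb (12.99 to 25.98), Scn8a 20.5 (19.4 to 22.95), Scn4a 18.7 (14.7 to 23.5) and Scn11a 16.1 (13.1 to 19.6). These 4 overlapped in range and their order is not resolved. Below them came Scn9a with 8.86 (5.71 to 11.4), Scn1a with 7.37 (5.79 to 9.47) and Scn7a with 5.51 (3.04 to 8.37), which overlapped each other. Scn2a had 3.45 (1.80 to 5.40) and Scn3a, best known from the developing nervous system, 2.68 (1.53 to 3.83), and these 2 overlapped each other and Scn7a. The highest ATAC fold on chromosome 9 was 2.74, in Scn10a in SNA, well under the Scn9a promoter. The Scn10a site chr9:119631236-119632401, 87.5 kb from the 5′ end, was present in all 4 lists with folds of 2.07 (Sham), 2.47 (SNA), 2.32 (Lam) and 1.82 (DCA), and 64, 81, 78 and 69 reads. In the genes with weaker starts the strongest ATAC peak lay elsewhere. For Scn1a it was inside the gene in DCA (chr2:66295051-66295290, fold 2.53) and for Scn3a inside the gene in SNA (chr2:65563906-65564208, 2.41). For Scn4a it lay in the upstream flank (chr11:106366358-106366971, 2.77) and for Scn11a in the downstream flank (chr9:119745856-119746207, 2.73), both in Sham.

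H3K27me3 peaks followed the same contrast between the clusters but were weak everywhere. Chromosome 9 held 29 peaks (Sham), 36 (SNA), 42 (Lam) and 19 (DCA), and chromosome 2 held 18, 31, 24 and 18. The density ratios were 5.75 (3.08 to 10.99), 4.14 (2.49 to 6.92), 6.24 (3.69 to 10.8) and 3.76 (1.87 to 7.61). Peaks covered 21.4% of the chromosome 9 windows (Sham), 20.0% (SNA), 31.6% (Lam) and 9.93% (DCA), against 2.28% to 4.09% on chromosome 2. Their median fold was 1.06 to 1.22 on chromosome 9, and 2 of the 307 H3K27me3 peaks in the 9 windows had a q of at most 0.05, neither of them on chromosome 9. In the whole lists 0.0478% to 1.31% of H3K27me3 peaks had such a q. Scn10a had 20, 21, 25 and 15 peaks in the order Sham, SNA, Lam and DCA, Scn11a 9, 15, 17 and 4, and Scn8a 17, 20, 28 and 9. Their mean densities over the 4 lists were 15.5, 12.3 and 9.44 per 100 kb. Scn7a had 0, 1, 1 and 0 and Scn9a 1, 3, 3 and 3, so the neighbours Scn9a and Scn7a were nearly free of them while Scn1a, next to Scn9a, had 9, 15, 12 and 9. A start of 1, 3, 4 and 2 of the 9 genes had an H3K27me3 peak within 1 kb, where 19.6% (Sham), 14.8% (SNA), 22.1% (Lam) and 7.13% (DCA) of all genes had. Scn8a had one in every list, Scn1a in all but Sham, and Scn4a, Scn10a and Scn11a in 1 list each.

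**Figure D5:**
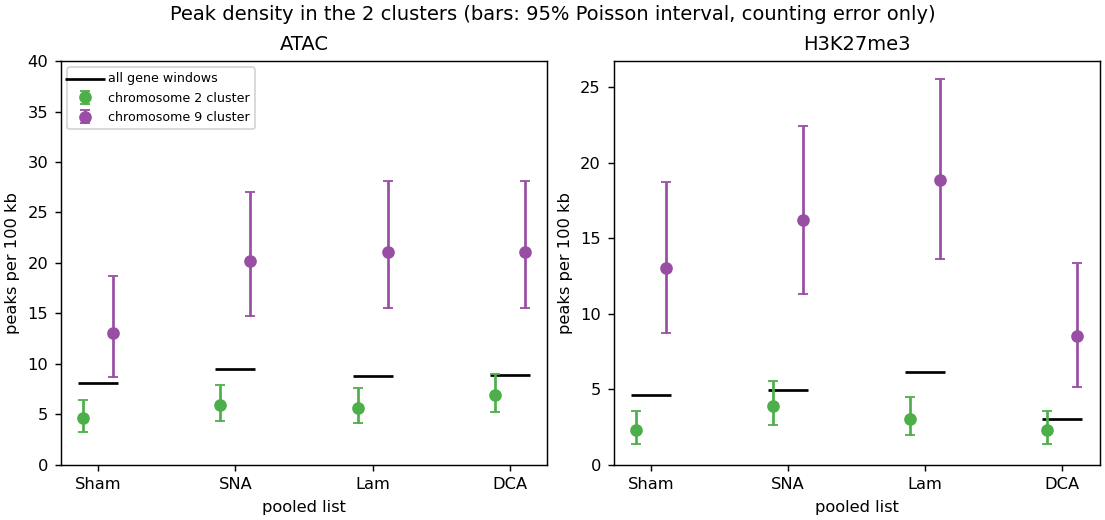
ATAC (left) and H3K27me3 (right) peaks per 100 kb in the chromosome 2 and chromosome 9 clusters for each pooled list; points are densities, bars 95% Poisson intervals that cover counting error only, and black dashes the density over all gene windows. Chromosome 9 lies above chromosome 2 in every list, at 13.0 to 21.1 against 4.66 to 6.93 for ATAC.

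Some ATAC peaks on chromosome 9 overlapped these weak H3K27me3 peaks. The share was 27.6% of 29 in Sham (Wilson 95% interval 14.7 to 45.7), 26.7% of 45 in SNA (15.96 to 41.04), 53.2% of 47 in Lam (39.2 to 66.7) and 17.02% of 47 in DCA (8.89 to 30.1). On chromosome 2 it was 5.41%, 8.51%, 15.6% and 7.27%, and in the whole ATAC lists 15.82%, 13.1%, 23.1% and 5.37%. H3K27me3 peaks covered 21.4%, 20.0%, 31.6% and 9.93% of the chromosome 9 windows themselves. Overlap with acetylation was rare. Of the ATAC peaks in all 9 windows, 2.63% met H3K9ac (Sham), 2.08% (SNA), 2.00% (Lam) and 5.77% (DCA), where 14.1%, 16.9%, 13.0% and 20.6% of the whole ATAC lists did. For H3K27ac the shares were 2.63%, 4.86%, 1.33% and 3.85%, against 10.7%, 15.1%, 15.8% and 10.8%.

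The effect of injury on peak number in the family was asked against each injury's own control. A gene was counted as higher where the injury list held at least 2 more peaks and at least 1.5 times as many, and as lower for the reverse. For ATAC the 9 windows held 114 peaks (Sham), 144 (SNA), 150 (Lam) and 156 (DCA). The log2 ratio was 0.34 for SNA over Sham (−0.03 to 0.70; whole lists 0.19) and 0.06 for DCA over Lam (−0.28 to 0.39; whole lists 0.06). The 2 controls differed more than either pair, with 0.40 for Lam over Sham (0.03 to 0.76; whole lists 0.04).

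Single genes differed in ATAC count in several comparisons. Scn7a (6 in Sham, 11 in SNA) and Scn10a (17 and 29) were higher in SNA, 2 of 9, where 20.3% of all genes and 24.4% of those in the members' length range were. None of the 9 was lower, where 7.46% of both were. In DCA against Lam, Scn2a (3 in Lam, 9 in DCA) and Scn7a (4 and 8) were higher, where 12.7% of all genes and 15.7% of those in the length range were, and none was lower, where 11.6% and 9.41% were. Scn10a had 29 in Lam and 34 in DCA, so Sham was its one low list. Lam against Sham called more members, with Scn9a (10 in Sham, 20 in Lam), Scn10a (17 and 29) and Scn11a (12 and 18) higher, where 16.9% of all genes and 18.2% in the length range were, and Scn2a (5 and 3), Scn3a (5 and 3) and Scn7a (6 and 4) lower, where 10.4% and 12.8% were. These contrasts share the Sham or the Lam list. With lists cut to equal size, Scn10a in SNA and Scn11a in Lam were no longer called, and with a q of at most 0.05 Scn11a, Scn2a and Scn3a in Lam against Sham were not, while Scn2a and Scn9a in SNA and Scn1a in Lam were added. With a −log10 q of at least 5, Scn10a in SNA and Scn7a in Lam were the calls that were kept. At that limit Scn8a was also higher in SNA and Scn11a lower, and Scn11a was lower in Lam than in Sham. Scn11a then had 2 peaks in Sham and 0 in both SNA and Lam, so its call in Lam changed direction.

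For acetylation, few members were called, and the lists differed in size and background, whose part was not tested. For H3K9ac, Scn8a was higher in SNA (1 of 9, where 19.4% of all genes and 29.4% in the length range were) and Scn4a (0 in Lam, 3 in DCA) and Scn8a in DCA (2 of 9, where 30% and 42.8% were). No member was lower in SNA (1.95% of both) or in DCA (2.05% and 2.4%). None was higher in Lam than in Sham (9.59% of all genes, 15.8% in the length range) or lower (9.43% and 10.9%). The background of the H3K9ac lists was 1.68 reads (Sham), 2.08 (SNA), 3.04 (Lam) and 5.20 (DCA), and the number of peaks in them 50332, 74652, 50667 and 89647. With lists cut to equal size no member was called for H3K9ac, and the 9 windows held 9 peaks in DCA and 8 in Lam, against 17 and 8 in the full lists. For H3K27ac, Scn7a and Scn8a were higher in SNA, where 27% of all genes and 39.5% in the length range were, and none was lower, where 3.86% and 6.37% were. The total went from 5 to 16 peaks, a log2 ratio of 1.68 (0.16 to 3.48; whole lists 0.79). It was 0.50 (−0.65 to 1.70) with 25 kb on either side. With lists cut to equal size it was 1.26 (−0.35 to 3.12; 12 and 5 peaks), so both of these intervals cover 0. In DCA against Lam, Scn10a was higher, where 2.62% of all genes and 2.96% in the length range were. Scn8a was lower, where 18.7% and 28.8% were, and the total went from 9 to 10, or from 2 to 10 with lists cut to equal size. In Lam against Sham, Scn8a was higher, where 22.2% and 34% were, and none was lower (2.5% and 3.44%). With lists cut to equal size, Scn7a and Scn8a stayed higher in SNA and Scn10a in DCA, whereas Scn8a was no longer higher in Lam. Scn8a and Scn4a were then higher in DCA than in Lam, and Scn4a was lower in Lam than in Sham. With a −log10 q of at least 5 no member was called for H3K27ac.

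For H3K27me3, Scn1a, Scn3a, Scn9a and Scn11a were higher in SNA than in Sham, 4 of 9, where 15.2% of all genes and 19.2% in the length range were, and none was lower (15.7% and 20.1%). In DCA against Lam, Scn4a, Scn8a, Scn10a and Scn11a were lower, 4 of 9, where 41.8% of all genes and 54.3% in the length range were, and none was higher (3.44% and 3.72%). The members' share is near that background. The whole list held 90011 peaks in DCA and 154055 in Lam. The 9 windows went from 102 to 46 peaks, a log2 ratio of −1.15 (−1.68 to −0.63; whole lists −0.78), and from 52 to 46 with lists of equal size, where Scn8a and Scn10a were no longer called and Scn9a was higher in DCA. In Lam against Sham, Scn4a, Scn8a, Scn9a and Scn11a were higher, where 27.1% and 35% were, and none was lower (7.99% and 11%). With lists of equal size Scn8a and Scn9a were not called there and Scn2a was, and in SNA the 4 calls were kept and Scn2a was added. With a q of at most 0.05 no member was called for H3K27me3.

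The sharing of ATAC sites between surgeries in the family was near that over all gene windows. Merging the 4 lists gave 315 ATAC regions in the 9 windows, of which 31 (9.84%, 7.02 to 13.6) were in all 4 lists, against 12.1% over all gene windows, and 179 (56.8%) were in 1 list, against 56.8%. Scn8a held 9 of the 31, Scn10a 7, Scn4a 4, and Scn3a none. Regions of both injuries and no control numbered 15 (4.76%) and those of both controls and no injury 5 (1.59%), against 4.35% and 2.63% over all gene windows.

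Partner genes of the channels were counted in the same way. The 13 partners were the beta subunits Scn2b, Scn3b and Scn4b, the fibroblast growth factor homologous factors Fgf11 to Fgf14, and the anchoring and trafficking genes Ank3, Sptbn4, Nfasc, Cntn1, S100a10 and Dpysl2. The windows of Scn2b and Scn4b each reach the other gene, so the same peak can count for both. Those of Scn2b, Scn3b, Fgf11, Fgf14, Sptbn4 and Dpysl2 also hold further coding genes, to which peaks there may belong. An H3K9ac peak lay at a start of 8 of 13 (Sham), 7 (SNA), 5 (Lam) and 11 (DCA), and an H3K27ac peak at 5, 6, 6 and 7. Over all genes with a listed start the shares were 50.4% to 59.9% for H3K9ac and 40.5% to 52.1% for H3K27ac, and the difference was not tested. Of the 13, Scn3b, Ank3, S100a10 and Dpysl2 have no listed start and were counted at either gene end, which gives them 2 windows. Scn3b, Fgf11, Ank3 and S100a10 had both marks in all 4 lists. Scn3b encodes a beta subunit, Ank3 encodes ankyrin-G, which anchors channels at the axon initial segment, and S100a10 (p11) carries Nav1.8 to the membrane. For ATAC the numbers were 10, 13, 10 and 12 of 13, and for H3K27me3 8, 5, 8 and 1. Over all genes with a listed start, 68.2% to 70.3% had an ATAC peak there. For H3K27me3 the shares were 19.6% (Sham), 14.8% (SNA), 22.1% (Lam) and 7.13% (DCA). By the rule above, H3K9ac was higher in SNA for 5 of the 13 (Scn2b, Ank3, Nfasc, S100a10 and Dpysl2) and in DCA for 6 (Scn3b, Ank3, Sptbn4, Nfasc, Cntn1 and Dpysl2), and lower for none. Over all genes 19.4% and 30% were higher. H3K27ac was higher in SNA for 5 (Scn3b, Ank3, Nfasc, S100a10 and Dpysl2) and lower for 2 (Sptbn4 and Cntn1), where 27% and 3.86% of all genes were. In DCA it was higher for 1 (Sptbn4) and lower for 4 (Fgf11, Nfasc, Cntn1 and Dpysl2), where 2.62% and 18.7% were. H3K27me3 was higher in SNA for 4 (Scn2b, Scn4b, Ank3 and Nfasc) and lower for 2 (Scn3b and Fgf11), where 15.2% and 15.7% were. In DCA it was higher for 1 (Scn4b) and lower for 5 (Scn2b, Ank3, Sptbn4, Nfasc and Dpysl2), where 3.44% and 41.8% were. ATAC was higher in SNA for 6 (Scn2b, Scn4b, Fgf11, Fgf13, S100a10 and Dpysl2) and lower for 1 (Fgf12), and in DCA higher for 1 (Scn3b) and lower for 2 (Scn4b and Fgf11). Over all genes 20.3% and 7.46% were in SNA, and 12.7% and 11.6% in DCA. The partners are between 6.88 kb (Fgf11) and 703 kb (Fgf14) long, and these shares over all genes are not matched to their lengths.

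The genes whose peak densities were most like those of the family over the 16 lists, by Pearson's r of densities scaled to the gene mean, were St8sia1 (0.99), Mup5, Plxna4, Slc24a4 and Fbxo41 (each 0.98), of 16798 compared. The points share assays and lists, so this is a description only. Scaled this way, the family stood at 0.09 to 0.18 of the gene mean for the 2 acetylation marks, 0.88 to 1.10 for ATAC and 1.07 to 1.42 for H3K27me3. The gene mean takes in genes of every length. Per 100 kb, the 9 windows held 0.55 to 1.33 H3K9ac peaks and 0.39 to 1.25 H3K27ac peaks. The medians of genes in the members' length range were 2.09 to 3.88 and 2.02 to 2.86.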

How the data were processed

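Peak lists made from 24 ChIP, 24 input and 12 ATAC samples were analysed. The submitters' processing notes name the genome build mm10, and the series' design text says that replicates were pooled into 1 list per group. The aligner and peak caller are not given in the sources used here. Of the deposited columns, the fold enrichment (a linear ratio), −log10 p and −log10 q are the authors' own values per peak, used to describe and filter peaks, and folds of 1 site are set side by side across lists as deposited, with no common scale. The deposited display score was not used. Names of peaks in all 16 lists carry ranks above the number of lines, and why is not given in the sources used here.

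Repeated ATAC intervals, 1 line per summit, were reduced to their best line by −log10 p. Peaks were assigned to a gene by an overlap of at least 1 bp with its RefSeq body (GRCm38.p6) and 10 kb on either side, and to a start within 1 kb (either gene end where no start is listed). A peak in 2 windows of a cluster was counted once. Background and pile-up in reads of the narrow lists were recovered from the deposited fold, taken as (pile-up + 1)/(background + 1), and −log10 p under a Poisson model, with 1 scale factor per list. They matched for 97.6% to 100% of 5000 sampled peaks per list within 0.003. This stands in for depth, since no read totals were used. It was tested on simulated data, as was the counting. Ratios of 2 counts have exact conditional (Clopper-Pearson) intervals, densities exact Poisson and shares Wilson intervals, all at 95%. The rule for named genes was to name all 9 members with their strongest peak per assay and the peak nearest a start, the partners with a start peak or a call, and the 5 genes of at least 20 peaks with the highest correlation of profile. Other peaks named, such as sites in all 4 lists, were chosen after their values were seen. Some genes of the partner and marker lists are not reported here, and counts over these lists are without them. The members and lists were chosen with earlier results of these data known. Python 3.11.15, pandas 2.3.3, numpy 2.4.6 and scipy 1.17.1 were used.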

Additional observations from a re-analysis of the deposited data

Results flagged for a closer look

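In 2 cases the peak number of a gene moved in opposite directions after the 2 injuries, each against its own control. H3K27ac peaks in the Scn8a window numbered 3 in Sham and 8 in SNA, and 8 in Lam and 4 in DCA. The log2 ratio of SNA over Sham exceeded that of DCA over Lam by 2.42. H3K27me3 peaks in the Scn11a window numbered 9 in Sham and 15 in SNA, and 17 in Lam and 4 in DCA, a difference of 2.82 on the log2 scale. With 1 pooled list per group, neither difference was tested. The whole lists moved in the same directions as these 2 genes. For H3K27ac their log2 ratios were 0.79 (SNA over Sham) and −0.53 (DCA over Lam), and for H3K27me3 0.20 and −0.78. The share of all genes that moved in this way is not given here. With lists cut to equal size the Scn8a numbers were 3, 5, 2 and 4 in the order Sham, SNA, Lam and DCA, so DCA was no longer lower than Lam. The Scn11a numbers were then 4, 8, 9 and 4.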

How the results depend on the processing

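No paired analysis was possible because the replicates of each group were pooled in 1 list, and for the same reason no replicate could be left out. Of 94 values of 21 results under other settings, 82 stayed within the counting interval of the value reported, or within 1.5 times for a count. None reversed a direction that the interval had set. The density of ATAC peaks on chromosome 9 over that on chromosome 2 stayed between 1.46 and 1.76 on the log2 scale in 9 settings and fell to 0.59 with peaks of a −log10 q of at least 5. With lists of equal size, log2 DCA over Lam was −0.18 for H3K27me3 and 2.32 for H3K27ac. For H3K9ac it was 2.58 (6 and 1 peaks) under the stricter −log10 q limit of 5. With lists of equal size it was 0.17 (9 and 8). Regions present in all 4 lists were 20.9% for ATAC when peaks within 1 kb also counted as shared. With a reciprocal overlap of 50% they were 3.52% for ATAC, 6.45% for H3K9ac, and 0% for H3K27ac and for H3K27me3. With a q of at most 0.05 they were 0% of 2 regions for H3K27me3. When at least 50% of the ATAC peak had to be covered, 1.60% of ATAC peaks met H3K27ac and 14.0% met H3K27me3 over the 4 lists, against 3.19% and 17.7% with 1 bp. Some filters gave no ratio because a count was 0, as for H3K9ac on chromosome 9 and for H3K27me3 with strict q. The cause was not tested in these cases.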
